A study of Mus musculus with 7 samples.

Results

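The 10 genes described here encode the energy-sensing kinase AMPK and the transcriptional regulators grouped around PGC-1, and they were taken by symbol from the 12239 genes measured in fast-twitch mouse muscle with and without *Mybpc2*. All 10 symbols were present. Of these, 6 encode AMPK subunits, namely the catalytic subunits α1 and α2 (*Prkaa1*, *Prkaa2*), the scaffold subunits β1 and β2 (*Prkab1*, *Prkab2*) and the regulatory subunits γ1 and γ3 (*Prkag1*, *Prkag3*). The other 4 encode the coactivators PGC-1α and PGC-1β (*Ppargc1a*, *Ppargc1b*), the nuclear receptor ERRα (*Esrra*) and the mitochondrial transcription factor A (*Tfam*).

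The muscle sampled, tibialis anterior (TA) of the hind leg, is made of fast-twitch fibres for the most part and came from male FVBN mice aged 5 to 6 months, either wild type (WT, n = 4) or constitutive knockouts of *Mybpc2* (C2-/-, n = 3), and whole-muscle RNA was sequenced after oligo(dT) selection. *Mybpc2* encodes fMyBP-C, the fast skeletal form of myosin-binding protein C. The C2-/- allele has a neomycin-resistance cassette flanked by LoxP sites in place of exons 2 to 22 and is present in every cell, so a change in the muscle cannot be assigned to the fibres alone. The design text of the series names 4 animals for each genotype, and the 3 C2-/- libraries given in the labels were analysed here.

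AMPK is a heterotrimer of 1 α, 1 β and 1 γ subunit. It is switched on when AMP rises relative to ATP, which is sensed by the γ subunit, and when an upstream kinase phosphorylates the α subunit. In skeletal muscle, active AMPK promotes glucose uptake and fatty acid oxidation, and the γ3 subunit is known for its restriction to fast, glycolytic fibres. PGC-1α is induced by endurance exercise and drives mitochondrial biogenesis by coactivating nuclear receptors such as ERRα and the NRF factors. These raise the transcription of nuclear genes for oxidative phosphorylation and of *Tfam*, whose product packages and transcribes mitochondrial DNA.

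Levels are given as log2 CPM, the log2 of the reads of a gene per 1e6 reads after TMM scaling (trimmed mean of M values), in the order of the replicate numbers. Changes are C2-/- minus WT on this scale with their standard error (SE) from limma, and a gene was past the threshold when its Benjamini-Hochberg adjusted p over all genes was under 0.05 and its fold change was above 1.5 in either direction. *Mybpc2* itself stood at 12.41 to 12.85 in the WT libraries and at 1.16, 1.67 and -0.47 in the C2-/- libraries (3 to 8 reads), so each library carried the level of its label. WT replicates 1 to 3 held 14929214 to 15464499 reads, WT replicate 4 held 4683853, and the C2-/- libraries held 2613277 to 4917936. Depth and genotype were thus largely confounded, and the fold changes over all genes also followed the GC content of the transcripts. The median change was 1.12 over the tenth of genes lowest in GC content and -1.73 over the tenth highest in it (deciles 1 and 10 of 10). Each change is therefore set beside the change after a GC correction of every library, and beside the change of C2-/- against WT replicate 4 alone, the WT library in their depth range. That last comparison has 1 WT library, which is assumed to vary like the C2-/- libraries.

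Of the 10 genes, 7 were past the threshold in C2-/- muscle, against 45.2% of all genes. The 4 that rose were *Ppargc1a*, *Prkaa2*, *Prkaa1* and *Tfam*, against 20.2% of all genes, and the 3 that fell were *Esrra*, *Prkab2* and *Prkag1*, against 25.0%. The members moved in both directions, and their count is to be read against these shares of the whole table. In whole-muscle RNA, fewer cells of a type and less RNA per cell cannot be told apart. The groups did not overlap in 6 of the 10 genes, compared with 49.3% of all genes. The median change of the 10 was 0.18, and that of all genes was -0.14, a value that median centring of the libraries moved to 0.02. After the GC correction 2 of the 10 were past the threshold (20.6% of all genes), *Ppargc1b* as higher (12.3%) and *Prkab2* as lower (8.32%). Against WT replicate 4 alone, 1 of the 10, *Prkab2*, passed (4.53% of all genes), and all 10 kept the sign they had with all libraries. *Prkab2* was therefore the member that passed in all 3 comparisons.

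**Figure D1:**
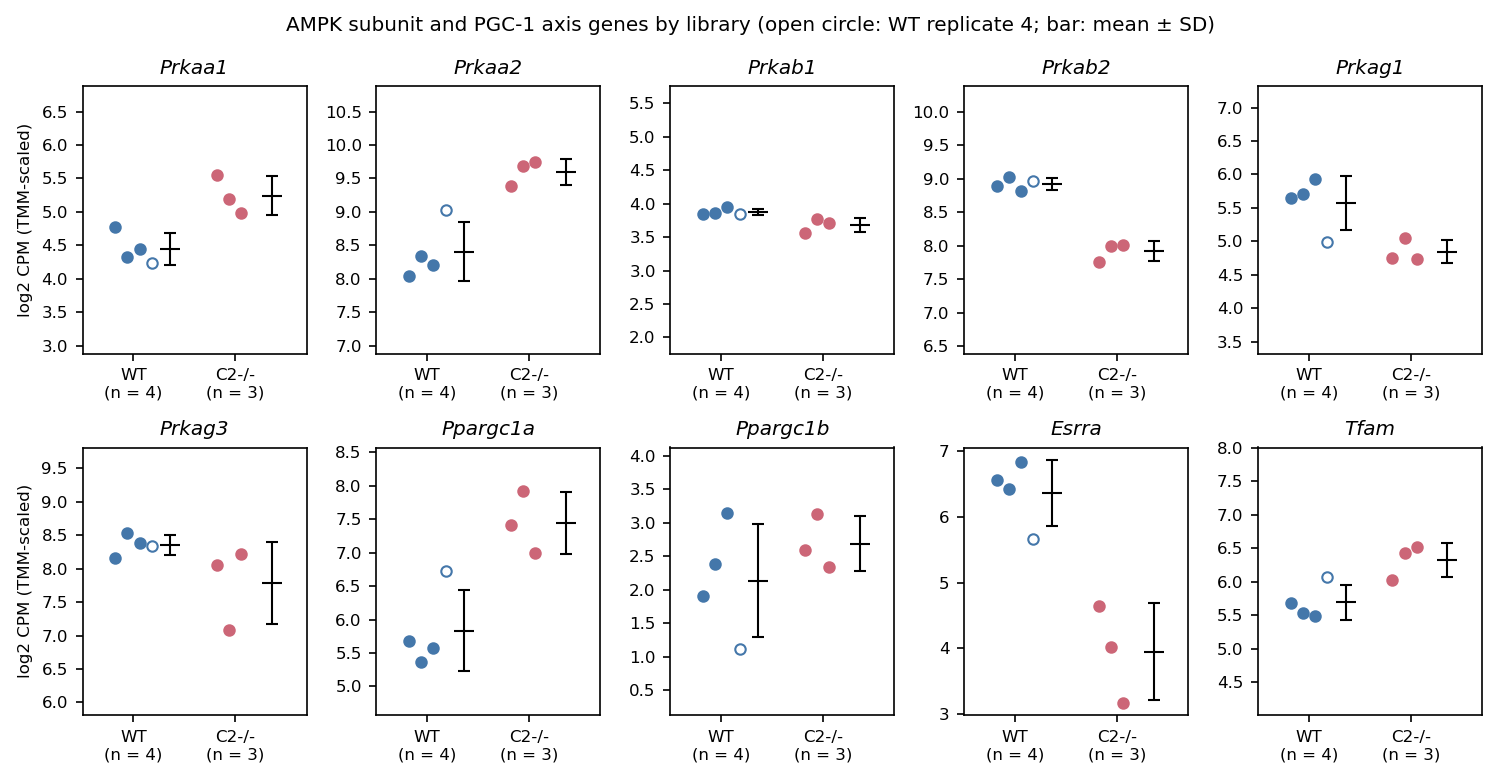
Log2 CPM of the 10 genes (y axis) in each WT and C2-/- library, with 1 point per library, WT replicate 4 as an open circle and bars for mean ± SD. Of the WT libraries, WT replicate 4 lay nearest to the C2-/- libraries for *Prkaa2*, *Prkag1*, *Ppargc1a*, *Esrra* and *Tfam*, whereas for *Prkab2* it stood at 8.96 among the other WT libraries.

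Promoter sequences are shown for 3 of the genes. They are those with the largest rise (*Ppargc1a*) and the largest fall (*Esrra*) before the GC correction, and the one past the threshold both before and after it (*Prkab2*). The sequences run from 250 bases before to 50 bases after the RefSeq start site (GRCm38.p6), 5′ to 3′ on the strand of the gene, at chr5:51567676-51567975 (minus), chr19:6921759-6922058 (minus) and chr3:97657962-97658261 (plus) in that order. Capitals mark the letters of 4 short motifs searched on both strands, the NRF-1 core GCATGCGC, the ETS core CCGGAAG, the cAMP response element core TGACGT and the GC box GGGCGG.
Ppargc1a: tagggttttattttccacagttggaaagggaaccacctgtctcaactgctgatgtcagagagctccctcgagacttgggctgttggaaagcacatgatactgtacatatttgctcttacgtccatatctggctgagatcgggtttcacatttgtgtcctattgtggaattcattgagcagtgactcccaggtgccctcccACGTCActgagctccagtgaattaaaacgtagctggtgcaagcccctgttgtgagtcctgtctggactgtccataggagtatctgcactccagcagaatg
Esrra: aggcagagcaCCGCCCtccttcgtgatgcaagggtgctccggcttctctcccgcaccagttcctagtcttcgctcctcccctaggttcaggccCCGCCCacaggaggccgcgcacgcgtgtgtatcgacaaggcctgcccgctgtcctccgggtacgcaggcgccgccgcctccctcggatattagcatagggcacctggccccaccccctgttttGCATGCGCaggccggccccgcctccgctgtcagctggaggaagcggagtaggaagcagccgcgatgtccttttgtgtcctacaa
Prkab2: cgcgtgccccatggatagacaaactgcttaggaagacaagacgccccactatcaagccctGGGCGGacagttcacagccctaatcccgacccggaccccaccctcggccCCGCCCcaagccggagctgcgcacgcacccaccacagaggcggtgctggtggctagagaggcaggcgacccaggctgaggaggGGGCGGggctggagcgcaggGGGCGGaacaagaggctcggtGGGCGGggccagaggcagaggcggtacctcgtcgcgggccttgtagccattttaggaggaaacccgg

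The *Ppargc1a* window held the cAMP response element core on the strand opposite to the gene, printed as ACGTCA, its first base at -50 from the start site. This core, known as the site of CREB family factors, is present in 7.51% of 32851 promoter windows of this length and in 2 of the 9 windows found for the 10 genes. The *Esrra* window held the NRF-1 core at -34, a match present in 2.71% of all windows and in no other of the 9. *Prkab2* had 5 GC boxes between -190 and -17, and *Esrra* had 2, at -240 and -157. At least 1 GC box was found in 35.7% of all windows and in 6 of the 9. The ETS core, found in 8.86% of all windows, was present in those of *Prkab1*, *Prkag1* and *Tfam*. The estrogen-related receptor element TNAAGGTCA, present in 1.28% of all windows, had no match in the 9. The GC content of the 3 printed windows was 48.7% for *Ppargc1a*, 66.0% for *Esrra* and 68.0% for *Prkab2*, and the median over all windows was 52.7%. Matches describe the letters of these windows and were not related to the changes in level.

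The catalytic subunits were both higher in C2-/- muscle before the correction for GC content. *Prkaa2*, which encodes α2, the main catalytic isoform of skeletal muscle, is a minus-strand gene of chromosome 4 (105029874 to 105109890 in GRCm38). Its log2 levels were 8.04, 8.35, 8.21 and 9.03 in WT (8.41 ± 0.44, SD, n = 4) and 9.38, 9.68 and 9.74 in C2-/- (9.60 ± 0.19, SD, n = 3). Every C2-/- library was above every WT library, and WT replicate 4 stood 0.84 above the other WT libraries on average. The change was 1.19 (SE 0.23, 95% interval 0.68 to 1.71), a 2.29-fold rise (limma adjusted p = 0.00297). It was 0.18 after the GC correction (adjusted p = 0.504 by limma), and against WT replicate 4 alone it was 0.57 (adjusted p = 0.28). Its transcript has a GC content of 40.7%, in the lowest decile, where the middle of the genes (25th to 75th percentile) changed by 0.66 to 1.51.

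*Prkaa1*, for the more widely expressed α1, lies on the plus strand of chromosome 15 (5143861 to 5181899). It stood at 4.77, 4.33, 4.45 and 4.23 in WT (4.45 ± 0.24, SD, n = 4), and at 5.55, 5.19 and 4.98 in C2-/- (5.24 ± 0.29, SD, n = 3). Here too the groups did not overlap, but WT replicate 4 was the lowest library of all, away from C2-/-. The rise was 0.80 (SE 0.23, 95% interval 0.28 to 1.31), or 1.74-fold, with a limma adjusted p of 0.0189. It became -0.28 (adjusted p = 0.483 by limma) after the GC correction, so its direction depended on that step, and it was 1.01 (adjusted p = 0.198) against WT replicate 4 alone. The rise missed the threshold without WT replicate 2 (0.76, limma adjusted p = 0.0587) and without C2-/- replicate 1 (0.64, adjusted p = 0.0617). With a GC content of 40.2%, the transcript was in the same lowest decile as that of *Prkaa2*.

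Of the scaffold subunits, β2 was lower in C2-/- muscle in every comparison made. *Prkab2*, for the β isoform that predominates in skeletal muscle, lies on the plus strand of chromosome 3 (97658193 to 97673812). Its levels were 8.89, 9.02, 8.81 and 8.96 in WT (8.92 ± 0.09, SD, n = 4) and 7.75, 8.0 and 8.01 in C2-/- (7.92 ± 0.15, SD, n = 3), and the reads behind them ranged from 627 to 7789. The groups lay apart by more than their own ranges, and WT replicate 4 differed by 0.05 from the others on average. The fall was -1.0 (SE 0.14, 95% interval -1.32 to -0.68), a level 2.00-fold lower with a limma adjusted p of 0.00081. It was -1.31 (SE 0.14, adjusted p = 0.000787 by limma) after the GC correction and -1.04 (adjusted p = 0.0418) against WT replicate 4 alone. The transcript has a GC content of 46.8%, in the fourth decile, where genes changed by a median of 0.25 and the 25th percentile was -0.35. *Prkab2* thus fell in a class of GC content whose other genes were, on the median, slightly higher. It was past the threshold as lower in all 14 alternative analyses, with changes between -1.31 and -0.84, and in the 7 that left out 1 library each.

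*Prkab1*, for β1, on the minus strand of chromosome 5 (116013586 to 116024508), stood at 3.84, 3.87, 3.95 and 3.85 in WT (3.88 ± 0.05, SD, n = 4) and at 3.57, 3.77 and 3.72 in C2-/- (3.69 ± 0.11, SD, n = 3). The C2-/- libraries were all below the WT libraries, but by little. The change of -0.19 (SE 0.24, 95% interval -0.73 to 0.35) did not pass the test (limma adjusted p = 0.531). It turned to 0.83 after the GC correction (adjusted p = 0.0507 by limma), and against WT replicate 4 alone it was -0.17 (adjusted p = 0.911). In its GC decile the median change was -1.01.

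The regulatory subunits γ1 and γ3 both had lower mean levels in C2-/- muscle, and the groups overlapped in both. *Prkag3*, for the fast-fibre subunit γ3, on the minus strand of chromosome 1 (74738922 to 74749221), had levels of 8.17, 8.54, 8.38 and 8.33 in WT (8.36 ± 0.15, SD, n = 4) and 8.05, 7.08 and 8.22 in C2-/- (7.78 ± 0.61, SD, n = 3). C2-/- replicate 2 was far below the other 6 libraries, which lay between 8.05 and 8.54. The change was -0.57 (SE 0.25, 95% interval -1.13 to -0.01) and did not pass (limma adjusted p = 0.0869). Without C2-/- replicate 2 it was -0.22 (adjusted p = 0.315 by limma), without C2-/- replicate 3 it was -0.79 and passed (adjusted p = 0.043), and after the GC correction it was 0.14 (adjusted p = 0.702). It was -0.55 against WT replicate 4 alone (limma adjusted p = 0.42).

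*Prkag1*, for the ubiquitous γ1, on the minus strand of chromosome 15 (98812797 to 98831521), stood at 5.64, 5.71, 5.93 and 4.99 in WT (5.57 ± 0.41, SD, n = 4) and at 4.76, 5.05 and 4.73 in C2-/- (4.85 ± 0.18, SD, n = 3). WT replicate 4 lay inside the C2-/- range, and the other WT libraries lay above it. The fall was -0.72 (SE 0.25, 95% interval -1.27 to -0.18), 1.65-fold, with a limma adjusted p of 0.0349, and this call was lost when any 1 of 5 libraries was left out (adjusted p up to 0.109). It was -0.07 after the GC correction (adjusted p = 0.844 by limma) and against WT replicate 4 alone it was -0.14 (adjusted p = 0.889). The exons of *Prkag1* share 950 bases, 43.7% of their length, with an antisense gene, B130046B21Rik, and since the use of strand in counting is not given in the sources used here, reads of the pair cannot be told apart.

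**Figure D2:**
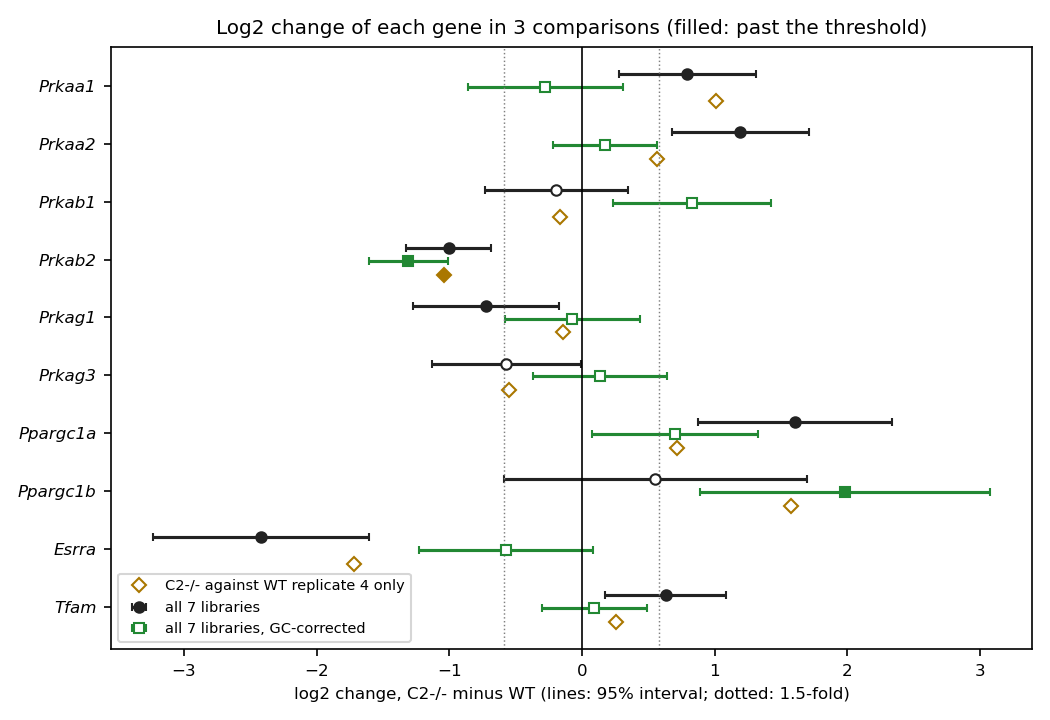
Log2 change, C2-/- minus WT (x axis), of the 10 genes with all 7 libraries, with all 7 after the GC correction (both with 95% intervals) and with WT replicate 4 as the only WT library (no interval drawn). Filled symbols passed the threshold, and *Prkab2* is the gene with 3 filled symbols, at -1.0, -1.31 and -1.04.

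The transcription regulators held the largest changes of the 10 genes in each direction before the GC correction, after which the largest fall was that of *Prkab2*. *Ppargc1a*, for the exercise-inducible coactivator PGC-1α, lies on the minus strand of chromosome 5 (51454250 to 51567726). Its levels were 5.67, 5.37, 5.57 and 6.73 in WT (5.84 ± 0.61, SD, n = 4) and 7.41, 7.92 and 7.0 in C2-/- (7.44 ± 0.46, SD, n = 3). All C2-/- libraries were above all WT libraries, with WT replicate 4 between the other WT libraries and C2-/-, 1.19 above the mean of the former. The rise was 1.61 (SE 0.33, 95% interval 0.88 to 2.34), or 3.05-fold (limma adjusted p = 0.00368). It was 0.70 (SE 0.28, adjusted p = 0.101 by limma) after the GC correction and 0.72 (adjusted p = 0.241) against WT replicate 4 alone, positive in both but past the threshold in neither. The transcript has a GC content of 41.7%, in the decile whose median change was 1.12. Reads were counted per gene, so the known alternative promoters and isoforms of *Ppargc1a* were not separated.

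*Ppargc1b*, for the related coactivator PGC-1β, lies on the minus strand of chromosome 18 (61298136 to 61400431) and had the fewest reads of the 10 genes, 57, 78, 135 and 9 in WT and 17, 23 and 24 in C2-/-. The log2 levels were 1.91, 2.39, 3.14 and 1.11 in WT (2.14 ± 0.85, SD, n = 4) and 2.59, 3.14 and 2.34 in C2-/- (2.69 ± 0.41, SD, n = 3), so the groups overlapped. The change of 0.55 (SE 0.51, 95% interval -0.59 to 1.69) did not pass the test (limma adjusted p = 0.392), and the interval covers both directions. After the GC correction the levels became 1.22, 1.69, 2.35 and 0.84 in WT and 3.06, 4.30 and 3.16 in C2-/-. On that scale the groups did not overlap and the change was 1.98 (SE 0.49, adjusted p = 0.0198 by limma). Against WT replicate 4 alone, which had 9 reads, the uncorrected change was 1.58 (limma adjusted p = 0.402).

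*Esrra*, for ERRα, the orphan nuclear receptor through which PGC-1α acts on oxidative genes, lies on the minus strand of chromosome 19 (6910977 to 6921813). It stood at 6.55, 6.42, 6.84 and 5.66 in WT (6.37 ± 0.50, SD, n = 4) and at 4.64, 4.03 and 3.17 in C2-/- (3.95 ± 0.74, SD, n = 3), from 222 to 1756 reads in WT and 43 to 72 in C2-/-. The groups did not overlap, and WT replicate 4 was the lowest of the WT libraries, 0.94 under the mean of the others. The fall was -2.42 (SE 0.37, 95% interval -3.23 to -1.61), 5.36-fold, the largest change of the 10 genes (limma adjusted p = 0.000989). Corrected for GC content it was -0.57 (SE 0.30, adjusted p = 0.189 by limma), and against WT replicate 4 alone it was -1.72 (adjusted p = 0.101). At 61.8%, its transcript was in the decile of highest GC content, where the median change was -1.73 and the 25th percentile was -2.41, close to the change of *Esrra* itself. Of its exonic bases 1.7% lie opposite *Trmt112* on the other strand.

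*Tfam*, on the minus strand of chromosome 10 (71225464 to 71238280), stood at 5.67, 5.54, 5.49 and 6.07 in WT (5.69 ± 0.26, SD, n = 4) and at 6.03, 6.43 and 6.52 in C2-/- (6.32 ± 0.26, SD, n = 3). WT replicate 4 was above C2-/- replicate 1, so the groups overlapped. The rise was 0.63 (SE 0.21, 95% interval 0.17 to 1.09), 1.55-fold, with a limma adjusted p of 0.0296, and it missed the threshold when any 1 of 5 libraries was left out (adjusted p up to 0.0909). Corrected for GC content it was 0.09 (adjusted p = 0.74 by limma), and against WT replicate 4 alone 0.26 (adjusted p = 0.705). Its GC decile had a median change of 0.55, close to its own.

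**Figure D3:**
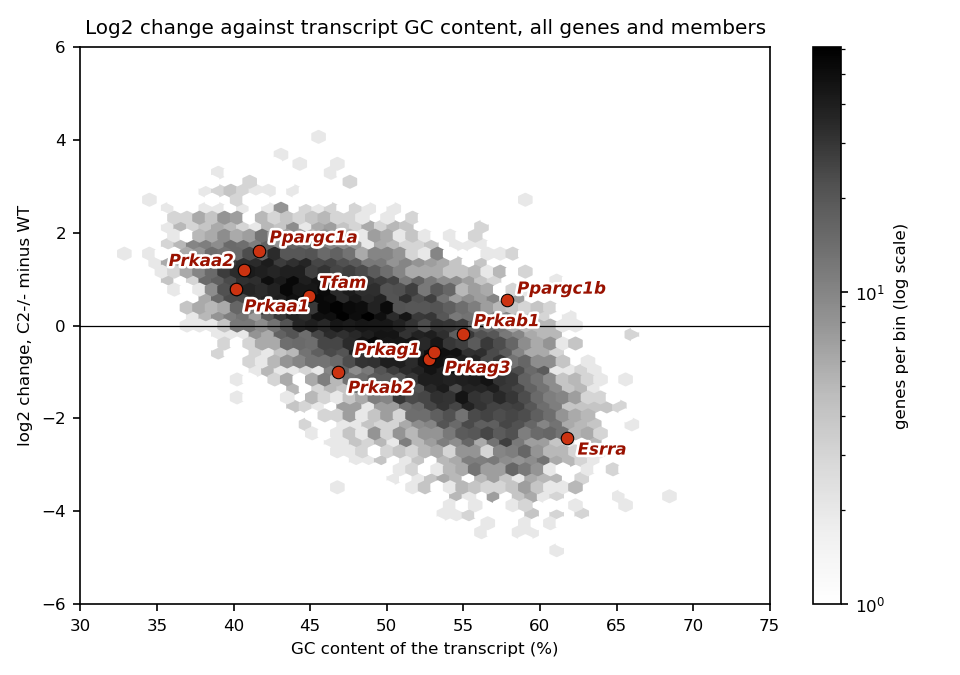
Log2 change, C2-/- minus WT (y axis), against the GC content of the transcript in percent (x axis) for 12172 genes, shaded by the number of genes per bin on a log scale, with the 10 genes as red points. *Prkab2* at 46.8% lies below the middle of the genes of like GC content, *Ppargc1b* and *Prkab1* lie above it, *Ppargc1a* at 1.61 and *Esrra* at -2.42 lie just outside the 25th to 75th percentile of their deciles, and the other 5 lie inside it (*Mybpc2*, at -11.82, and *Mir762* lie outside the axes).

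Levels per kilobase of transcript allow the genes to be ordered within a group. In WT muscle *Prkag3* stood at 116 ± 12.3 CPM per kb (SD, n = 4) and *Prkab2* at 97.1 ± 6.03, followed by *Prkaa2* at 44.2 ± 14.7. The subunits γ3, β2 and α2, which form the heterotrimer known from fast muscle, thus had the highest mean levels of the AMPK transcripts. The ranges of *Prkag3* (101 to 131) and *Prkab2* (89.9 to 104) overlapped, and *Prkaa2* (33.0 to 65.8) overlapped with *Esrra* (38.4 ± 11.8), which in turn overlapped with *Prkag1* (29.6 ± 7.47). The range of *Prkag1* (19.2 to 37.0) also overlapped with that of *Prkaa2*. *Tfam* (12.6 ± 2.43), *Ppargc1a* (9.51 ± 4.63) and *Prkab1* (7.04 ± 0.25) came next, with *Ppargc1a* overlapping both of its neighbours. *Prkaa1* (4.73 ± 0.81) and *Ppargc1b* (1.37 ± 0.78) were lowest, each below the range of the gene before it.

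In C2-/- muscle the order per kilobase, before the GC correction, was headed by *Prkaa2* at 98.0 ± 12.6 CPM per kb (SD, n = 3). *Prkag3* was at 82.2 ± 30.2 and *Prkab2* at 48.6 ± 4.72, and each of these 3 overlapped with its neighbour. *Ppargc1a* (27.9 ± 8.94) came next, overlapping with *Tfam* (19.4 ± 3.33), which overlapped with *Prkag1* (17.5 ± 2.22). *Prkaa1* (8.24 ± 1.69), *Esrra* (7.47 ± 3.56) and *Prkab1* (6.17 ± 0.44) followed, and *Ppargc1b* (1.81 ± 0.53) was last in both genotypes. By these values *Esrra* was at place 4 in WT and 8 in C2-/-, and *Ppargc1a* at 7 and 4. The order changed with the GC correction, a comparison added after seeing the data. On the corrected values *Prkag3* headed the C2-/- order at 107 ± 36.6 CPM per kb (70.9 to 144), above *Prkaa2* at 65.3 ± 5.74 (59.0 to 70.2) and *Prkab2* at 43.1 ± 4.36 (38.3 to 46.9). In WT they put *Prkab2* (106 ± 5.66) before *Prkag3* (94.3 ± 12.0), whose ranges overlapped, followed by *Prkaa2* at 58.5 ± 11.8. *Esrra* was then at place 5 in WT and 7 in C2-/-, and *Ppargc1a* at 7 and 5.

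The balance of alternative subunits was taken within each library as the log2 ratio of their levels per kilobase, and no test was made on it. For the scaffold, β2 over β1 was 3.80, 3.90, 3.60 and 3.85 in WT and 2.92, 2.97 and 3.03 in C2-/-. The genotypes did not overlap, and the ratio of the mean was 13.8 in WT and 7.86 in C2-/-. After the GC correction the values were 4.11 to 4.54 in WT and 2.01 to 2.44 in C2-/-, again without overlap, with a difference of -2.14 compared with -0.81 before. *Prkab2* was the more abundant scaffold transcript in every library. The α2 over α1 ratio was 2.49, 3.24, 2.99 and 4.03 in WT and 3.05, 3.72 and 3.98 in C2-/-, and γ3 over γ1 was 1.75, 2.05, 1.67 and 2.57 in WT and 2.52, 1.26 and 2.71 in C2-/-. Both overlapped between the genotypes, which differed by 0.40 and 0.15, and against WT replicate 4 alone both differences turned, to -0.44 and -0.41.

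For the coactivators, PGC-1α over PGC-1β was 2.95, 2.16, 1.61 and 4.79 in WT and 4.00, 3.96 and 3.83 in C2-/-. WT replicates 1 to 3 lay below all C2-/- libraries and WT replicate 4 lay above them, on 9 reads of *Ppargc1b*. The difference of 1.06 became -1.28 after the GC correction and -0.86 against WT replicate 4 alone, so its direction was not stable.

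**Figure D4:**
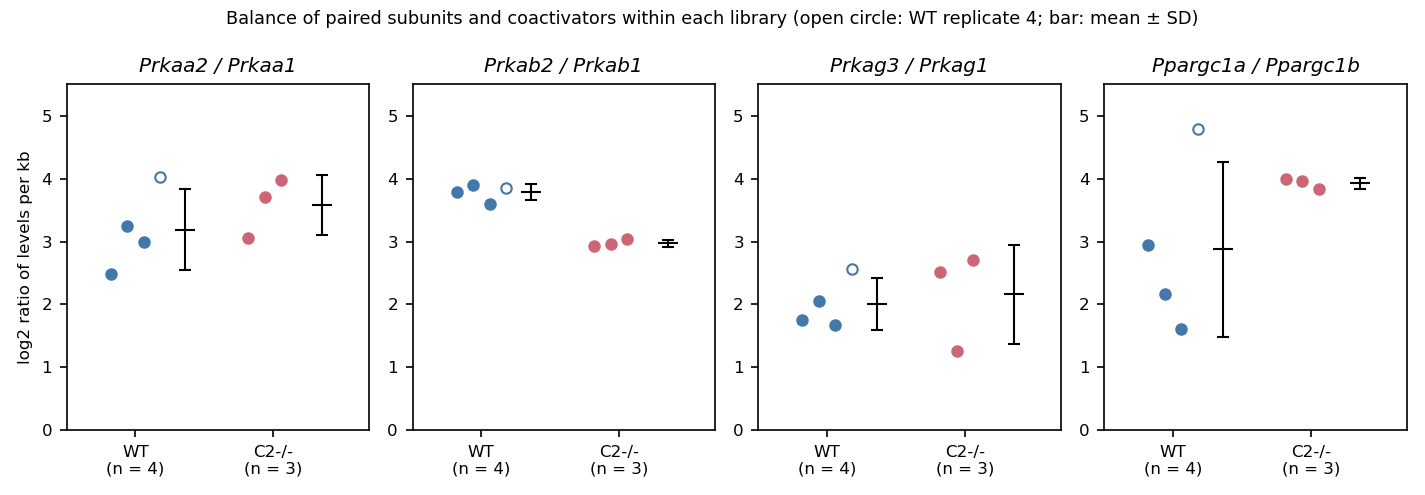
Log2 ratio of the levels per kilobase (y axis) of paired AMPK subunits and of the PGC-1 coactivators in each library, with 1 point per library, WT replicate 4 as an open circle and bars for mean ± SD. For β2 over β1 (*Prkab2* / *Prkab1*) the WT libraries lie at 3.60 to 3.90 and the C2-/- libraries at 2.92 to 3.03, and the other 3 ratios overlap between the genotypes.

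The genes around AMPK were examined next, in lists of upstream regulators and of substrates. Of 15 upstream kinases and regulators measured, 4 rose, 4 fell and 7 did not pass, with a median change of -0.28, beside 20.2% of all genes that rose and 25.0% that fell. *Prkag2*, for the third γ subunit, which is not among the 10 genes, rose from 3.34 ± 0.28 to 4.60 ± 0.60 (change 1.26, SE 0.33, limma adjusted p = 0.0114). It remained past the threshold after the GC correction at 1.46 (adjusted p = 0.0151 by limma), and 12.3% of its exonic bases lie opposite an antisense gene. *Strada*, for the pseudokinase that activates LKB1, fell by 1.56 on the log2 scale (limma adjusted p = 0.0102), with -2.61 after the GC correction (adjusted p = 0.00396). *Fnip1* and *Flcn*, whose products form the folliculin complex that restrains AMPK, went in opposite directions, at 1.13 (limma adjusted p = 0.00982) and -1.54 (adjusted p = 0.0139), and after the GC correction neither passed (-0.07 and -0.58). *Adipor1*, an adiponectin receptor gene with the highest mean level of the list over the 7 libraries, had a change of -0.55, under the fold threshold, which turned to 0.24 with the GC correction (adjusted p = 0.253). Against WT replicate 4 alone *Prkag2* changed by 1.51, *Strada* by -1.13, *Fnip1* by 0.44, *Flcn* by -0.88 and *Adipor1* by -0.54. In the GC-corrected values 1 gene of the list was higher and 2 were lower, beside 12.3% and 8.32% of all genes.

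Of 14 genes for AMPK substrates, 8 fell, 1 rose and 5 did not pass, with a median change of -1.01 (25.0% of all genes fell and 20.2% rose). With the GC correction 2 fell, 0 rose and the median was 0.07 (8.32% and 12.3% of all genes). *Acacb*, for the mitochondrial acetyl-CoA carboxylase that restrains fatty acid oxidation and is inactivated by AMPK, changed by -1.97 (SE 0.22, limma adjusted p = 0.000302). It was still past the threshold after the GC correction (-0.69, limma adjusted p = 0.00837). *Hdac5*, for a histone deacetylase exported from the nucleus on phosphorylation, changed by -2.13 (limma adjusted p = 0.002), but by -0.58 (adjusted p = 0.118) after the GC correction. *Gys1*, for muscle glycogen synthase, had the highest mean level of the list over the 7 libraries and fell from 9.63 ± 0.06 to 8.36 ± 0.16 (limma adjusted p = 0.000342), with -0.17 left after the GC correction. The changes against WT replicate 4 alone were -1.46 for *Acacb*, -1.40 for *Hdac5* and -1.21 for *Gys1*.

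Partners and regulators of PGC-1 moved in both directions. Of 23 genes, 9 rose, 7 fell and 7 did not pass (median 0.19, with 20.2% and 25.0% of all genes rising and falling), and after the GC correction 1 rose and 1 fell (12.3% and 8.32%). *Esrrg*, for the receptor ERRγ related to ERRα, rose by 1.37 (SE 0.27, limma adjusted p = 0.00295), and 0.55 remained after the GC correction (adjusted p = 0.131). The kinase p38α, which phosphorylates PGC-1α, is encoded by *Mapk14*, with a change of -1.04 (limma adjusted p = 0.00262), and its target *Atf2* had a change of 1.13 (adjusted p = 0.00226). For the MEF2 factors, which act with PGC-1α in muscle, *Mef2c* had a change of 1.04 (limma adjusted p = 0.00511) and *Mef2d* one of -1.07 (adjusted p = 0.00131). After the GC correction the changes of these 4 genes were between -0.43 and 0.10, and none passed. With WT replicate 4 as the only WT library the changes were 0.94 for *Esrrg*, -0.74 for *Mapk14*, 1.33 for *Atf2*, 0.44 for *Mef2c* and -1.32 for *Mef2d*.

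Besides *Tfam*, 18 genes for the maintenance and transcription of mitochondrial DNA were measured, of which 6 rose, 5 fell and 7 did not pass (median 0.09). Of all genes, 20.2% rose and 25.0% fell. With the GC correction 2 of the list were higher and 0 lower (12.3% and 8.32% of all genes). *Ssbp1*, for the mitochondrial single-stranded DNA-binding protein, rose by 1.91 (SE 0.35, limma adjusted p = 0.00231) and by 0.93 after the GC correction (adjusted p = 0.0452). *Rrm2b*, for the ribonucleotide reductase subunit of resting cells, rose by 1.78 (limma adjusted p = 0.00125), but its change after the GC correction was 0.64 (adjusted p = 0.083). *Polrmt*, for the mitochondrial RNA polymerase, changed by -1.53 (limma adjusted p = 0.00238) before and by 0.25 after the GC correction. *Dguok*, for deoxyguanosine kinase, changed by -1.56 (limma adjusted p = 0.0169) on 6 to 236 reads and by -0.95 (adjusted p = 0.128) after the correction. *Lonp1*, for a mitochondrial protease, had the highest mean level of the list over the 7 libraries and a change of -0.71 (limma adjusted p = 0.041), with groups that overlapped, and its change turned to 0.65 (adjusted p = 0.109) with the GC correction. Against WT replicate 4 alone *Ssbp1* (0.89), *Rrm2b* (0.98), *Dguok* (-0.76) and *Lonp1* (-0.19) changed by less, and *Polrmt* by -1.48. Of the 15 listed genes encoded by mitochondrial DNA itself, 0 were found by symbol among the 12239 genes, so they could not be analysed here.

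Of 20 known target genes of PGC-1α and ERRα, 4 rose, 9 fell and 7 did not pass, with a median change of -0.32, beside 20.2% of all genes that rose and 25.0% that fell. With the GC correction 3 rose and 3 fell, beside 12.3% and 8.32% of all genes. Both counts of falls include *Cpt1b*, which had 0 reads in C2-/- and whose fall at the floor of 3 reads per library is under the fold threshold, so it is no firm call. *Acadm*, for the medium-chain acyl-CoA dehydrogenase of fatty acid oxidation, a classical ERRα target, rose from 8.92 ± 0.37 to 10.13 ± 0.15 (change 1.21, SE 0.21, limma adjusted p = 0.00177) and remained past the threshold after the GC correction (1.07, adjusted p = 0.00729). *Slc2a4*, for the insulin-responsive glucose transporter GLUT4, fell from 9.48 ± 0.21 to 7.39 ± 0.51 (change -2.09, SE 0.23, limma adjusted p = 0.000302), with -0.98 after the GC correction (adjusted p = 0.00342). *Cycs*, for cytochrome c, rose by 1.14 (limma adjusted p = 0.00478) before and by 0.14, without passing, after the correction. The ATP synthase subunit gene *Atp5b*, with the highest mean level of the list over the 7 libraries, changed by -0.68 (limma adjusted p = 0.0144) before and by -0.23 after it. The changes against WT replicate 4 alone were 0.70 for *Acadm*, -1.82 for *Slc2a4*, 0.42 for *Cycs* and -0.42 for *Atp5b*. *Cpt1b* had 22, 23, 18 and 7 reads in WT and 0 in each C2-/- library. As 81.4% of its exonic bases are shared with a readthrough gene on the same strand, its level is uncertain and no fold is given. With *Cpt1b* at the bound that 3 reads per library allow, the median of the list was -0.24.

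**Figure D5:**
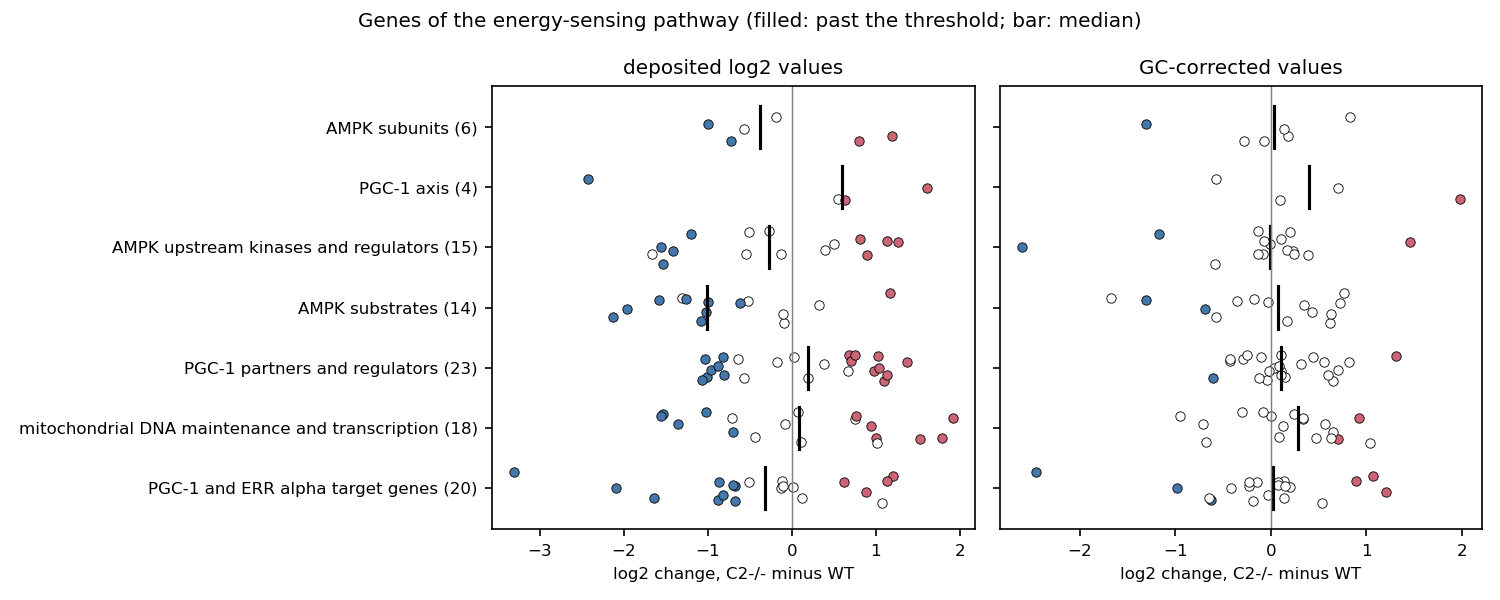
Log2 change, C2-/- minus WT (x axis), of each measured gene in 7 groups (rows, with the number of genes), from the deposited values (left) and after the GC correction (right). Red and blue points were past the threshold as higher and lower, open points were not, and vertical bars are medians. The median of the AMPK substrates moves from -1.01 on the left to 0.07 on the right, and the leftmost target gene is *Cpt1b*, with 0 reads in every C2-/- library, whose position rests on the 0.5 added before the log.

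The genes most like *Prkaa2* and *Ppargc1a* across the libraries were found by Pearson's r over the 7 libraries among 7807 genes with a mean log2 level of at least 3, as a description only. For *Prkaa2* they were *Dnm1l* (r = 0.997), which encodes the GTPase of mitochondrial fission, *Ccser2* (0.996) and *Rexo2* (0.996), for an oligoribonuclease. For *Ppargc1a* they were *Atp6v1a* (0.996), for a subunit of the vacuolar proton pump, *Mut* (0.995), for methylmalonyl-CoA mutase, and *Fam213a* (0.995). The libraries share differences in genotype, depth and base composition, and 1380 and 1024 genes had an r above 0.9 with *Prkaa2* and *Ppargc1a*, so such values were common.

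Markers of the cell types in the muscle were then summed in each library. The fast-fibre markers were the most abundant. Their 8 genes summed to 144000 to 180000 CPM in WT and 80300 to 96900 in C2-/-, with 4 genes lower and 0 higher (median change -0.96), beside 25.0% and 20.2% of all genes. With the GC correction 2 of them were lower and 1 higher (8.32% and 12.3% of all genes), and their median was 0.09. *Myh4*, for the IIb myosin heavy chain, was at 15.55 ± 0.24 and 15.33 ± 0.12 (limma adjusted p = 0.613). Of 8 slow-fibre markers 6 were measured and none passed, at 43.9 to 118 CPM in WT and 69.8 to 103 in C2-/-. With the GC correction 1 of them, *Atp2a2*, passed as higher (0.66, limma adjusted p = 0.04), beside 12.3% of all genes. No read of *Myh7* was found in C2-/- or in WT replicate 4.

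Fibroblast markers were at 468 to 794 CPM in WT and 1520 to 1870 in C2-/-, with 5 of 6 higher and 1 lower (20.2% and 25.0% of all genes), and with 3 higher and 0 lower after the GC correction (12.3% and 8.32%). The ranges of WT and C2-/- overlapped for the 6 endothelial markers (307 to 441 and 278 to 362 CPM), for the 6 macrophage markers (25.5 to 42.7 and 38.7 to 55.1) and for the 4 satellite cell markers (11.8 to 34.4 and 21.3 to 28.8). The endothelial list had 1 gene higher (*Emcn*) and 1 lower (*Cldn5*), and the macrophage list 1 higher (*Mrc1*) and 1 lower (*C1qa*). The satellite cell list had 2 higher (*Myf5* and *Chodl*) and 0 lower. Of all genes, 20.2% were higher and 25.0% lower. Reads went down to 1 for *Cldn5* and to 0 for *C1qa*, and *Myf5* had 1 to 20, so these calls lie near the floor. With the GC correction 0 genes of these 3 lists passed (12.3% and 8.32% of all genes). Of 6 adipocyte markers 2 were measured (0.13 to 3.87 and 1.72 to 11.2 CPM), of 4 Schwann cell markers 3 (31.6 to 70.0 and 32.3 to 55.4), and of 5 red blood cell markers only *Alas2* (4.10 to 5.15 and 1.03 to 2.06). Of these, *Alas2* and the Schwann cell gene *Mbp* were past the threshold as lower (25.0% of all genes), neither of them after the GC correction. The adipocyte gene *Plin1*, on 1 to 22 reads, passed as higher only after it (3.81, limma adjusted p = 0.0317, beside 12.3% of all genes). The changes of the 10 genes thus stood beside a lower sum of fast-fibre markers and a higher sum of fibroblast markers in the uncorrected values, and the part of cell composition in them was not tested. With the GC correction *Prkab2* still passed and *Ppargc1a* did not (0.70), while the median of the fibroblast markers was 0.91.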

How the data were processed

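TA muscle RNA of 4 WT and 3 C2-/- male mice was sequenced as DNA nanoballs. The authors aligned the reads with HISAT to GRCm38.p6, counted them per gene with featureCounts 1.5.2, applied edgeR's TMM scaling and deposited log2 values for 12239 genes. How strand and multiply mapped reads were treated, and how the genes were filtered, is not given in the sources used here. A second deposited table held the authors' own comparison (log2 fold changes and p-values) and was not used.

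Each deposited log2 value was the log2 of a whole number of reads plus 0.5 over the scaled library size (100.0% of values, tolerance 0.001 reads). The recovered reads gave 2613277 to 15464499 per library, and 3 reads stood at 0.195 to 1.12 CPM, which covers counting error only. The added 0.5 weighs more in the shallower libraries, so falls of genes with few reads can be understated and rises overstated. Each title was taken as 1 sample from 1 animal, and p-values measure the spread between these libraries. Every pair of libraries differed beyond counting error (lowest chi-square over degrees of freedom 9.12).

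The main test was limma 3.58.1 (R 4.3.3) with a mean-variance trend, two-sided, on all 7 libraries with genotype as the only term, tested on simulated data. GC content was taken from GENCODE M21 transcripts for 12172 genes (99.5%), with 354 matched by an older symbol. To correct for it, each library was fitted with a natural spline on GC content (5 degrees of freedom), and the fitted curve was exchanged for the average of the 7 curves. Positions are from GENCODE M21 and promoters from RefSeq, both on GRCm38. Levels per kilobase used 1 transcript per gene. Context genes named in the text were, per list, the 2 largest rises and 2 largest falls among genes past the threshold whose groups did not overlap, and the gene with the highest mean log2 level over the 7 libraries. *Gys1*, *Mef2d* and *Rrm2b* share 6.5%, 8.9% and 8.0% of their exonic bases with other genes. The members and lists were chosen with earlier results of these data known. Alternatives were other scalings, filters, corrections and thresholds, library quality weights, limma/voom on the recovered reads, thinned reads, a replicate block and leaving out each library.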

Additional observations from a re-analysis of the deposited data

Results flagged for a closer look

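WT replicate 4 held 4683853 reads in the table, far from the 14929214 to 15464499 of the other WT libraries, and 75 of its genes had 0 reads, compared with 1 to 3 in the others. Both values lay outside the WT group by Dixon's criterion at the 95% level. Among 17 values tested, 2 stood apart in this way, where chance gives about 0.9. The 2 are not independent, since the number of genes at 0 reads depends on the reads of the library. The log2 levels of the 10 genes and their balances did not stand apart by this criterion in WT replicate 4 or in any other WT library. Its levels differed from the mean of the other WT libraries by 1.19 for *Ppargc1a*, 0.84 for *Prkaa2*, -0.94 for *Esrra* and -1.37 for *Ppargc1b*, and by 0.05 for *Prkab2*. The cause was not tested.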

How the results depend on the processing

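Over all genes, 5528 were past the threshold, compared with 2509 (1496 higher, 1013 lower) after the GC correction, 2509 (1503 and 1006) after a GC and length correction, 2913 (1114 lower) with a replicate block and the GC correction, and 3216 (1456 and 1760) at an adjusted p under 0.01. Leaving out 1 library at a time gave 4095 to 6136 (1896 to 2876 higher, 2193 to 3260 lower). Of the 10 genes, 7 passed, compared with 2 (1 higher, 1 lower) after the GC correction, 3 (2 and 1) after the GC and length correction, 3 (2 and 1) with the block and the GC correction and 4 (2 higher) at 0.01, and 4 to 7 (2 to 4 higher, 2 to 3 lower) with 1 library left out, the 4 being without WT replicate 2. Of the listed context genes 57 passed (24 higher, 33 lower), 15 (7 and 8) after the GC correction, 22 (13 and 9) with the block and the GC correction, and 44 to 57 (18 to 25 higher, 24 to 33 lower) with 1 library left out.

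*Prkab2* and *Mybpc2* kept direction and call in every alternative run, *Mybpc2* between -12.26 and -10.83. After the GC correction, the GC and length correction, and the block with the GC correction, in that order, the changes were -0.28, -0.23 and -0.43 for *Prkaa1*, 0.18, 0.16 and 0.30 for *Prkaa2*, 0.83, 0.85 and 0.91 for *Prkab1*, -0.073, -0.15 and -0.21 for *Prkag1*, 0.14, 0.23 and 0.19 for *Prkag3*, 1.98, 2.08 and 1.75 for *Ppargc1b*, -0.57, -0.51 and -0.66 for *Esrra*, and 0.093, 0.15 and 0.17 for *Tfam*. *Ppargc1a* stood at 0.70 and 0.70 under the former pair, not past the threshold, and at 0.92, past it, under the last. Of these, *Ppargc1b* passed in all 3 and *Prkab1* in the second. WT replicate 4 is the only library of its number, so the replicate block gave it no weight in any change. Against WT replicate 4 alone, *Prkaa1* (1.01), *Prkaa2* (0.57), *Prkag1* (-0.14), *Ppargc1a* (0.72), *Esrra* (-1.72) and *Tfam* (0.26) did not pass. Reads thinned to equal depth took *Prkaa1* (0.67) and *Prkag1* (-0.64) out, median centring took *Prkag1* (-0.56) out, quantile normalisation took *Tfam* (0.52) out and *Prkag3* (-0.79) in, and a fit without the mean-variance trend took *Prkag1* (-0.72) and *Tfam* (0.63) out. The cause of these shifts was not tested.

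Leaving out each library in turn gave 0.64 to 0.93 for *Prkaa1*, 1.07 to 1.40 for *Prkaa2*, -0.24 to -0.13 for *Prkab1*, -1.05 to -0.92 for *Prkab2*, -0.92 to -0.60 for *Prkag1*, -0.79 to -0.22 for *Prkag3*, 1.37 to 1.90 for *Ppargc1a*, 0.21 to 0.89 for *Ppargc1b*, -2.77 to -2.03 for *Esrra*, 0.54 to 0.78 for *Tfam* and -12.26 to -11.19 for *Mybpc2*. The balances, left out in the same way as a choice made after seeing the data, ranged from -0.87 to -0.77 for β2 over β1 and from 0.165 to 0.677 for α2 over α1. They ranged from -0.12 to 0.605 for γ3 over γ1, where the sign turned, and from 0.632 to 1.694 for PGC-1α over PGC-1β. With thinned reads β2 over β1 was -0.67.

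WT and C2-/- libraries share replicate numbers 1 to 3. The deviations of same-numbered libraries from the mean of their group correlated at 0.05, -0.06 and -0.05. These values showed no pairing by number, but so few libraries that differ in depth cannot exclude it. The replicate block alone gave 5901 genes, 7 of the 10 members and 56 context genes past the threshold. *Ppargc1b*, with 9 to 135 reads, gave no value with a minimum mean log2 level of 3. The 3 deepest libraries were all WT, so depth and genotype cannot be told apart beyond WT replicate 4.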
